A study of Homo sapiens with 4 samples.

Results

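The STAT transcription factor genes *STAT2*, *STAT3*, *STAT4*, *STAT5A*, *STAT5B* and *STAT6* were examined for binding of Flag-tagged FLI1 in the established nasopharyngeal carcinoma line HK1. The members were taken by their symbols in GENCODE release 44 on GRCh38. A peak belonged to a gene if it lay within 3 kb of the transcription start site (TSS) of one of its annotated transcripts, in the gene body, or within 50 kb of the gene. By this rule 20 of the 30819 control peaks and 25 of the 39654 IFN-γ peaks were at the 6 genes. Both groups were HK1 cells that overexpressed Flag-FLI1. The control cells received PBS and the others received IFN-γ for 24 h, and immunoprecipitation was directed at the tag, so that the overexpressed protein was measured and not the endogenous one. Each condition had 1 library and no replicates, and differences between the libraries were therefore not tested as effects of IFN-γ. The peak lists hold no expression values, and neither the identity of the cells nor the level of any STAT transcript could be read from them.

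STAT proteins wait in the cytoplasm until a cytokine receptor is occupied. Kinases of the JAK family bound to the receptor then phosphorylate them on a tyrosine. The STATs pair through their SH2 domains and enter the nucleus, where most of the dimers bind the palindrome TTCNNNGAA. STAT2 serves the type I and type III interferons in a complex with IRF9, STAT3 the interleukin-6 family, STAT4 interleukin-12, STAT5A and STAT5B interleukin-2, prolactin and growth hormone, and STAT6 interleukin-4 and interleukin-13. FLI1 is a factor of the ETS family, whose members bind DNA around the core GGAA, and FLI1 is also known to occupy tandem GGAA repeats.

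The windows around the peak summits that the results turn on are given first. Each runs 60 bp to either side of the summit, 5′ to 3′ on the strand of the gene, and stops 30 bases past the TSS of the MANE Select transcript (the reference transcript of the gene) where it would cross it. Capitals mark the ETS core, written GGAA or, where it lies on the other strand, TTCC, and the AP-1 motif TGANTCA. The first 7 windows are those of the promoters, and the *STAT4* promoter, which had no peak, is shown from the RefSeq promoter table (GRCh38.p14) for comparison, from 250 bases before its TSS to 30 bases from it.
STAT2 promoter, control summit, chr12:56360168-56360288, minus strand: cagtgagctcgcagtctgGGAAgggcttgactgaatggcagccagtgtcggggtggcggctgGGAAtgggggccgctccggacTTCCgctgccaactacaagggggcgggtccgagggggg
STAT3 promoter, control summit, chr17:42387778-42387898, minus strand: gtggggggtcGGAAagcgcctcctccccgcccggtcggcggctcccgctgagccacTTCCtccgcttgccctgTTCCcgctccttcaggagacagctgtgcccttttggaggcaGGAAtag
STAT3 promoter, IFN-γ summit, chr17:42388415-42388535, minus strand: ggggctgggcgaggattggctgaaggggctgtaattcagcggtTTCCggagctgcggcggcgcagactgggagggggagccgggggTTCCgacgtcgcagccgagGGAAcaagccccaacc
STAT5A promoter, control summit, chr17:42288427-42288527, plus strand: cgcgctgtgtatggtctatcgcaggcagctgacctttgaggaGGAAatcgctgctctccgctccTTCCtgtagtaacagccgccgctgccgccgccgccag
STAT5B promoter, control summit, chr17:42276445-42276565, minus strand: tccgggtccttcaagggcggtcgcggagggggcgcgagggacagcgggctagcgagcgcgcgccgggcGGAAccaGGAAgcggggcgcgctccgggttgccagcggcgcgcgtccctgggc
STAT6 promoter, control summit, chr12:57111333-57111441, minus strand: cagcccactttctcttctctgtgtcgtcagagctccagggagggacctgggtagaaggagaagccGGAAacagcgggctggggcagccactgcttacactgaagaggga
STAT6 promoter, second IFN-γ summit, chr12:57112214-57112334, minus strand: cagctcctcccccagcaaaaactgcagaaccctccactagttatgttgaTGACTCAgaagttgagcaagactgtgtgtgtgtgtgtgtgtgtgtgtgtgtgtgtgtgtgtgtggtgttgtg
STAT4 promoter, no peak, chr2:191150965-191151244, minus strand: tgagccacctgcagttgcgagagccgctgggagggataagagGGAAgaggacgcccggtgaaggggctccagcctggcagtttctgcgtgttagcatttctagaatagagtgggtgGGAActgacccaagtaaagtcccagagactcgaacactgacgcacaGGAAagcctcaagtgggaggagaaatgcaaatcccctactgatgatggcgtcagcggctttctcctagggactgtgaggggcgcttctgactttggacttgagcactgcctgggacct
Away from the promoters, 1 further window is shown, that of a shared peak past a 1.5-fold difference between the libraries.
Upstream of STAT4, IFN-γ summit, chr2:191166362-191166482, minus strand: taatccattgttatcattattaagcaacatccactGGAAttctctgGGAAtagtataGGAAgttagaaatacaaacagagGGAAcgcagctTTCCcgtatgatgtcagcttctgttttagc

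For each peak the authors gave the fold enrichment at the summit over the local background and the −log10 of its p-value. The number of fragments piled up at the summit and the background there were solved from those values, which gave a whole fragment count at 100% of summits (relative error under 0.0001). The median summit had 16 (control) and 22 (IFN-γ) fragments, and the lowest backgrounds were 1.06 and 1.54 fragments, a ratio of 1.46 that was taken as the relative depth. Fragment counts of the IFN-γ library were divided by this ratio before they were set against the control. At such counts a ratio of 2 summits is imprecise, and the ranges in parentheses are exact binomial 95% intervals that cover counting error only. Absence of a peak means only that a site fell short of the threshold for calling in that library.

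Promoters of 5 of the 6 genes had a peak in the control library and 5 of 6 in the IFN-γ library, counting every annotated TSS. Among all protein-coding genes the shares were 61.9% and 59.7%. The 4 genes with one in both were *STAT2*, *STAT3*, *STAT5B* and *STAT6*, beside 56% of coding genes, and every STAT gene had one in at least 1 library, beside 65.6%. *STAT5A* had a promoter peak in the control library alone, as did 5.9% of coding genes, and *STAT4* in the IFN-γ library alone, as did 3.7%. At the MANE Select TSS, where 57.9% (control) and 54.5% (IFN-γ) of coding genes had a peak, the STAT counts were 5 and 4, since the *STAT4* peak belonged to an internal TSS. By that count 4 STAT genes were bound in both libraries and 5 in either, 1 in the control library alone and 0 in the IFN-γ library alone, beside 51.5%, 60.9%, 6.41% and 3.03% of coding genes. In the control library the median fold enrichment at these promoters was 10.8 over 5 STAT genes and 10.2 over 11031 coding genes. With IFN-γ it was 8.59 over 4 STAT genes and 8.63 over 10387 coding genes. The STAT promoters were thus spread around the middle of all bound promoters, with *STAT3* above and *STAT5B* below.

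**Figure D1:**
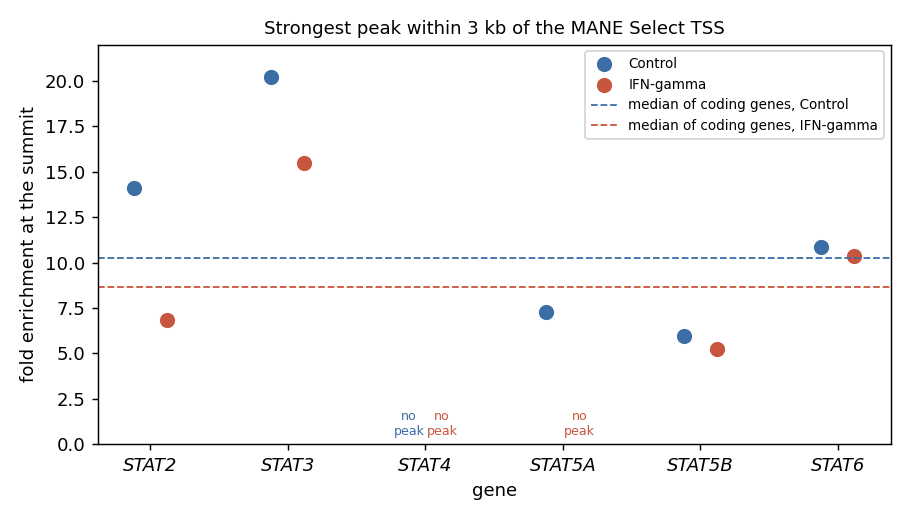
Fold enrichment (vertical axis, from 0) of the strongest peak within 3 kb of the MANE Select TSS of each gene (horizontal axis), with 1 point per library and no error bars because there was 1 library per condition; the dashed lines are the medians over coding genes with such a peak. *STAT3* was highest in both libraries with 20.2 and 15.5, *STAT5A* had a peak in the control library alone, and *STAT4* had none in either.

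*STAT3* (ENSG00000168610), the mediator of interleukin-6 signalling, occupies chr17:42313324-42388540 on the minus strand, and its promoter peak was the strongest among the promoters of the 6 genes in both libraries. The control summit had 51 fragments over a background of 1.57, a fold enrichment of 20.2, and the IFN-γ summit had 54 fragments over 2.55, a fold enrichment of 15.5. These peaks ranked 2189 of 30819 and 4749 of 39654 by −log10 p, within the leading 7.10% and 12% of the lists. Of the coding genes with a promoter peak, 82.1% had a weaker one than *STAT3* without IFN-γ and 74.8% with it. At equal depth the IFN-γ summit held 0.727 times the control signal (0.487 to 1.09), and this interval includes both 1 and the median of all shared promoter peaks, 0.893.

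Both *STAT3* promoter peaks were broad, 1477 bp (control) and 1506 bp (IFN-γ), and their summits lay 637 bp apart. The control summit was in intron 1, 604 bp downstream of the MANE Select TSS, and the IFN-γ summit was 33 bp upstream of that TSS and 1 bp from another annotated one. Over all shared promoter pairs the median distance between summits was 36 bp, and 6.81% of the pairs were more than 500 bp apart. The 2 windows printed above are therefore different stretches of the same peak, with 4 ETS cores within 100 bp of the control summit and 3 within 100 bp of the IFN-γ summit.

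*STAT2* (ENSG00000170581), the interferon-specific member that works with IRF9, occupies chr12:56341597-56360203 on the minus strand. Its control promoter peak had 28 fragments over a background of 1.06, a fold enrichment of 14.1, and its IFN-γ peak had 30 fragments over 3.54, a fold enrichment of 6.83. The summits were 7 bp apart, 121 bp and 114 bp upstream of the MANE Select TSS, so the peaks were centred on nearly the same bases. Fold enrichment was lower in the IFN-γ library by a ratio of 0.484, whereas the summit pileups alone gave 0.736 (0.425 to 1.28), the local background having differed more than the pileup. Among coding genes with a promoter peak, 62.8% had a weaker one than *STAT2* under control conditions and 42.2% under IFN-γ. An ETS core lay 2 bp from the summit in each library, within the stretch ggctgGGAAtggg of the window above.

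*STAT6* (ENSG00000166888), which answers interleukin-4 and interleukin-13, occupies chr12:57095408-57132139 on the minus strand. Its control promoter peak had 23 fragments over a background of 1.21 and a fold enrichment of 10.8. In the IFN-γ library 2 peaks overlapped that region. The first had 35 fragments over 2.48, a fold enrichment of 10.3 and a summit 28 bp from the control summit, and at equal depth it held 1.05 times the control signal (0.600 to 1.85). The second had 32 fragments over 2.17 and a fold enrichment of 10.4, with its summit 912 bp upstream of the MANE Select TSS, outside the control peak. An ETS core lay 5 bp from the control summit and 20 bp from the first IFN-γ summit. No GGAA lay within 100 bp of the second, which had TGACTCA, an AP-1 motif, 5 bp from its summit and a long GT repeat beside it.

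The *STAT5* genes and *STAT3* are neighbours on chromosome 17 within 189 kb. *STAT5A* (ENSG00000126561, chr17:42287547-42311943, plus strand) and *STAT5B* (ENSG00000173757, chr17:42199176-42288633, minus strand) are transcribed away from each other and overlap by 1087 bp through alternative first exons, with MANE Select TSSs 12.1 kb apart, and the 3′ end of *STAT5A* is 1.38 kb from that of *STAT3*. Peaks between them therefore fall under more than 1 of the genes, and each was counted once in the totals. *STAT5A* had a control peak of 14 fragments over a background of 1.06, with a fold enrichment of 7.30, a −log10 p of 12.2 and its summit 11 bp upstream of the MANE Select TSS. No IFN-γ peak lay at this site. The same enrichment at the depth of the IFN-γ library would have been 20.4 fragments over 1.54. That is above the lowest −log10 p in that list, but scaling to a greater depth can only raise this value. An annotated TSS of *STAT5B* lay 146 bp from this summit, so the peak is also at a promoter of *STAT5B*.

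At the main promoter of *STAT5B* the control summit had 15 fragments over 1.68 and a fold enrichment of 5.98, and the IFN-γ summit, 6 bp away, had 15 fragments over 2.05 and a fold enrichment of 5.25. It was the weakest of the 4 MANE Select promoters bound in both libraries, with 19.2% (control) and 17.4% (IFN-γ) of the coding genes that had a promoter peak below it. At equal depth the ratio was 0.687 (0.313 to 1.51), an interval too wide to separate it from 1. Its window has a GC content of 79.3% and 2 ETS cores 3 bases apart, in gcGGAAccaGGAAgc.

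*STAT4* (ENSG00000138378, chr2:191029576-191151596, minus strand), which carries interleukin-12 signals in T and NK cells, was the exception among the 6. No peak lay within 3 kb of its MANE Select TSS in either library, although its RefSeq promoter holds 3 GGAA cores, like the median of all 35116 RefSeq promoters. The IFN-γ library had a weak peak in intron 16, chr2:191038470-191038768, with 14 fragments over 2.83 and a fold enrichment of 3.91, and it ranked 86.1% of the way down its list by −log10 p. It overlapped the 3 kb window of an internal TSS with its summit 3162 bp from that TSS, and did not count as a promoter peak with 1 kb windows, with the MANE Select TSS alone, or with the IFN-γ list shortened to the length of the control list.

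**Figure D2:**
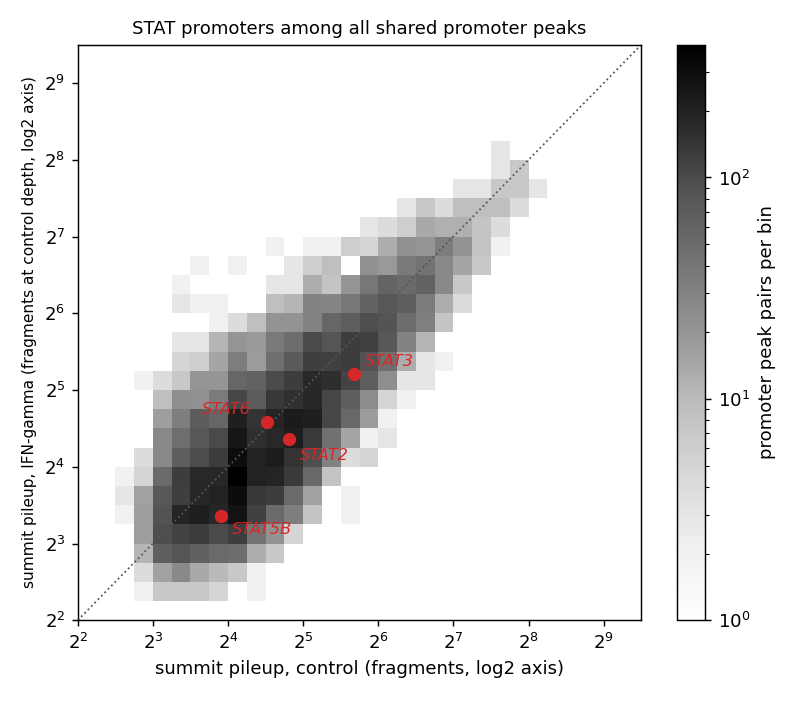
Summit pileup of all 13940 promoter peaks shared by the libraries, control on the horizontal axis and IFN-γ at control depth on the vertical axis (fragments, both axes log2), with the number of peak pairs per bin in grey and the promoters of 4 STAT genes in red. *STAT2*, *STAT3* and *STAT5B* lay below the dotted line of equality and *STAT6* on it, all inside the cloud.

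Inside the gene bodies the strongest peak was in intron 1 of *STAT3*, 21166 bp downstream of the MANE Select TSS. Its control summit had 30 fragments over 2.07 and a fold enrichment of 10.1, and its IFN-γ summit, 6 bp away, had 50 fragments over 2.48 and a fold enrichment of 14.7. At equal depth the ratio was 1.14 (0.714 to 1.86), beside a median of 1.24 for shared peaks away from promoters. A weaker *STAT3* pair lay in intron 21 at an internal TSS, with fold enrichments of 5.99 and 4.31, pileups of 13 and 14 fragments, summits 145 bp apart and a ratio of 0.740 (0.322 to 1.71).

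*STAT6* had a second shared pair between its outermost TSS and its MANE Select TSS, 7447 bp upstream of the latter in the control library, with 14 and 18 fragments, fold enrichments of 5.61 and 4.54 and a ratio of 0.883 (0.415 to 1.92). Further upstream, a peak of the IFN-γ library alone at chr12:57127396-57127774 had 11 fragments and a fold enrichment of 3.84. An ETS core lay 3 bp and TGAGTCA 15 bp from its summit. That summit was 792 bp from a TSS of the neighbouring gene *LRP1*, nearer than the closest *STAT6* TSS at 1409 bp. Counting promoters and bodies together, the 6 genes held 8 control peaks, of which 7 were shared, and 10 IFN-γ peaks, of which 8 were shared. These shares were 87.5% (47.3% to 99.7%) and 80% (44.4% to 97.5%). Over the whole lists 79.5% (control) and 76.9% (IFN-γ) of promoter peaks were shared, and 74.9% and 47.0% of distal peaks. With so few peaks the STAT shares cannot be told apart from those of all promoter peaks.

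**Figure D3:**
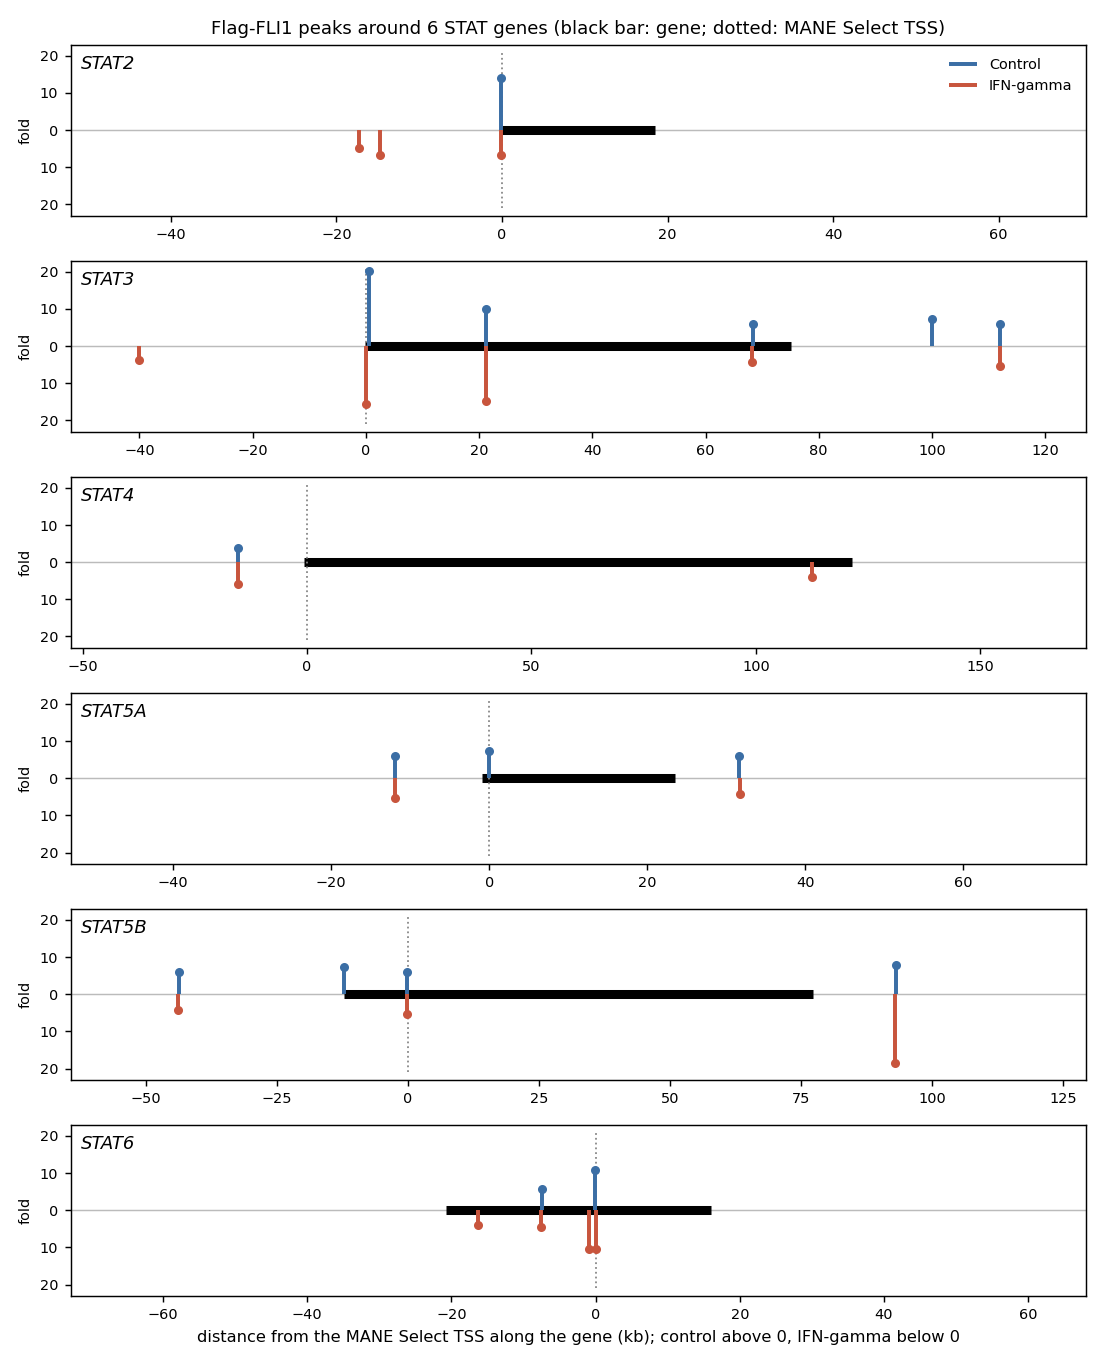
Fold enrichment (vertical axis, control above 0 and IFN-γ below 0) of peaks by distance from the MANE Select TSS along each gene (horizontal axis, kb), 1 panel per gene with the gene as a black bar; flanking peaks that overlap another protein-coding gene are left out. The largest bars stood at the *STAT3* promoter, 20.2 and 15.5, and at the repeat beyond *STAT5B*, 7.79 and 18.5.

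In the flanks the largest difference between the libraries was at a tandem GGAA repeat 15.6 kb beyond the 3′ end of *STAT5B*, near *HCRT*, the gene of the neuropeptide hypocretin. The control summit had 15 fragments over 1.06 and a fold enrichment of 7.79, and the IFN-γ summit had 56 fragments over 2.09 and a fold enrichment of 18.5. At equal depth the IFN-γ signal was 2.56 times the control signal (1.43 to 4.88), higher than at 98.3% of shared promoter peaks, the class it falls in through a TSS of *HCRT* 2002 bp from the IFN-γ summit. Over the whole genome 2053 shared peaks had a run of at least 4 GGAA units at the control summit. Their median ratio was 1.55, with quartiles of 1.22 and 1.95, and 53.9% had a ratio of at least 1.5, while the median without a run was 0.981 over 21842 pairs. Thus the repeat near *STAT5B* lay above the upper quartile of its kind, and its interval includes their median.

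The other flanking pair past a 1.5-fold ratio was 14.6 kb upstream of *STAT4*. Its control summit had 8 fragments over 1.34 and a fold enrichment of 3.85, and its IFN-γ summit, 89 bp away, had 22 fragments over 2.83 and a fold enrichment of 6.0. The ratio was 1.89 (0.810 to 4.91), and with so few control fragments the interval includes 1. Of shared pairs away from promoters, 33.1% had a ratio of at least 1.5 and 6.28% a ratio of at most 1/1.5, beside 11.7% and 22.2% of promoter pairs. Within 100 bp there were 5 ETS cores at the IFN-γ summit, including the GGAAGT of gtataGGAAgttag, and 3 at the control summit.

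The other 4 flanking pairs lay at promoters of neighbouring genes, and each interval included 1. The promoter of *RAB5C*, an early endosome GTPase beside *STAT5B*, had fold enrichments of 11.5 and 11.8 and a ratio of 0.951 (0.558 to 1.64). *CAVIN1*, which codes for a caveolar coat protein upstream of *STAT3*, had 8.0 and 5.63 and a ratio of 0.687 (0.344 to 1.37). The shared promoter region of *NEMP1* and *NAB2* near *STAT6* had 9.27 and 11.8 and a ratio of 0.916 (0.556 to 1.52), and the region of *PAN2* and *CNPY2* near *STAT2* had 4.37 and 3.06 and a ratio of 1.07 (0.431 to 2.80).

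**Figure D4:**
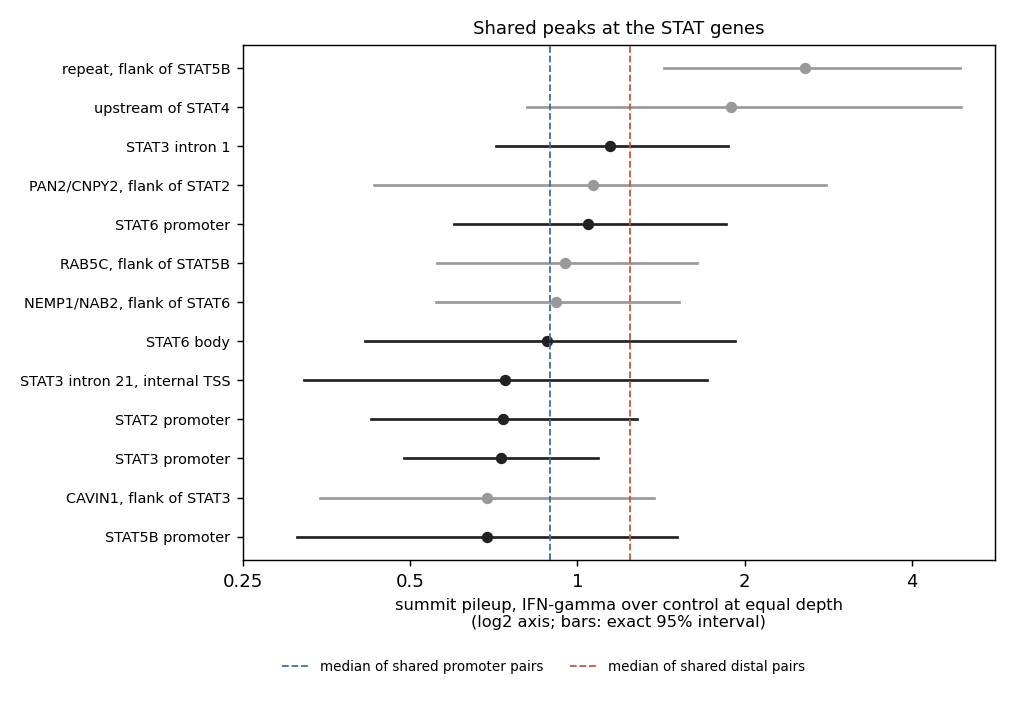
Summit pileup of IFN-γ over control at equal depth (horizontal axis, log2 scale) for the 13 shared peaks described at the STAT genes, with exact binomial 95% intervals as bars, promoter and gene body peaks in black and flanking peaks in grey; dashed lines are the medians of all shared promoter peaks, 0.893, and all shared distal peaks, 1.24. The interval of the GGAA repeat alone leaves out the median of its class.

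Across the 13 described pairs the ratio was below 1 in 8 and above 1 in 5, with a median of 0.916, but with the median promoter pair set to 1 it was below 1 in 6 and above 1 in 7. The interval included the genome-wide median of its class, promoter or distal, in 12 of the 13, and a ratio of at least 1.5 was reached by 2. None had a ratio of at most 1/1.5, which 22.2% of promoter pairs and 6.28% of distal pairs had. The lowest ratio, 0.687, was close to that bound, and from fold enrichments the *STAT2* promoter, at 0.484, was past it. In the 7 pairs at promoters or in gene bodies the ratio ran from 0.687 to 1.14, below 1 in 5. The 4 pairs at the MANE Select promoters had a ratio below 1 in 3, beside 61.7% of all shared promoter pairs. When fold enrichments were divided in place of pileups, the ratio was below 1 in 4. By that measure the median over all 13940 shared promoter pairs was 0.858, so a value below 1 was usual among promoters.

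Of the 20 control peaks at the STAT genes, 15 overlapped at least 1 bp of an IFN-γ peak, a share of 75% (exact Clopper-Pearson 95% interval 50.9% to 91.3%), beside 77.5% of all control peaks. In the IFN-γ library 16 of 25 had a control partner, a share of 64% (42.5% to 82.0%), beside 61% of the whole list. Both shares were thus close to those of the libraries as a whole, within counting error. The 5 control peaks without a partner were that of *STAT5A*, 1 in *IL23A*, 1 at *NEMP1* and 2 in *LRP1*, an endocytic receptor gene upstream of *STAT6*. The 9 IFN-γ peaks without a partner comprised the *STAT4* peak above, the *STAT6* peak above that lay nearer to a TSS of *LRP1*, and 7 in the flanks.

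The strongest of the unpaired IFN-γ peaks was at the divergent promoter of *IL23A* and *PAN2*, 7.11 kb beyond the 3′ end of *STAT2*, at chr12:56333678-56334484. *IL23A* codes for the cytokine-specific subunit of interleukin-23, whose receptor acts through STAT3 and STAT4. The summit, 6 bp from a TSS of *IL23A*, had 33 fragments over 3.19 and a fold enrichment of 8.12, which at control depth would be 22.7 fragments over 2.19. The control library had a peak of its own 312 bp from another TSS of *IL23A*, at chr12:56338533-56338938, with 8 fragments and a fold enrichment of 4.28. Which TSS of *IL23A* is the main one was not examined. A peak in *LRP1* (19 fragments, 7.40), 1 at the promoter of *CS*, the gene of citrate synthase (17 fragments, 5.07), and 2 upstream of *STAT2* (16 fragments, 6.70, and 11 fragments, 4.73) were also in the IFN-γ library alone, as was a peak 39.8 kb upstream of *STAT3* (13 fragments, 3.65) with 2 AP-1 motifs within 100 bp of its summit. The summits of the 2 peaks upstream of *STAT2* lay 2512 bp and 73 bp from a TSS of *APONP*, and 14616 bp and 17201 bp from the nearest TSS of *STAT2*. The 2 control peaks in *LRP1* had 8 and 10 fragments and fold enrichments of 4.38 and 4.40. At *NEMP1* each library had a weak peak of its own, 168 bp apart, with fold enrichments of 2.99 and 3.94. All 14 unpaired peaks, when scaled to the depth of the other library, were above the lowest −log10 p of its list. For the control peaks that outcome was fixed in advance, because scaling to the greater depth can only raise the −log10 p. The scaled background was that of the peak itself and not the local one in the other library. Why these peaks had no partner was not tested.

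ETS cores were common and the longer motifs rare at these summits. A GGAA or TTCC lay within 100 bp of 17 of the 18 described summits of the control library and 21 of the 23 of the IFN-γ library, beside 94.3% and 98.4% of all promoter and distal control summits and 97.1% and 98.7% of those with IFN-γ. The longer ETS motif, CAGGAAGT or CCGGAAGT on either strand, which contains the core, was at 2 control summits and 2 IFN-γ summits, beside 12.8% and 13.5% of all summits. A run of at least 4 GGAA units was at 1 in each library, beside 6.94% and 10.8%. TGANTCA was at 4 and 5, beside 17.7% and 22.1%. The STAT palindrome TTCNNNGAA was at 0 control summits and 1 IFN-γ summit, the *STAT6* summit 7529 bp upstream of its MANE Select TSS, beside 5.33% and 6.38%. The interferon-stimulated response element, a pair of GAAA units with 2 bases between them, was at 1 summit in each library, the GGAA repeat, beside 2.48% and 6.17% of all promoter and distal control summits and 4.51% and 11% of those with IFN-γ. With counts this small, shares of the STAT peaks cannot be told apart from those of all peaks.

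In the RefSeq promoters themselves, taken as 250 bases before to 50 after the TSS, 5 of the 6 genes had a window at the MANE Select TSS, and *STAT6* was matched at another TSS only. The count of ETS cores was 4 in *STAT2*, 3 in *STAT3*, 3 in *STAT4*, 4 in *STAT5A* and 2 in *STAT5B*, and 95.5% of all promoters had at least 1. CAGGAAGT or CCGGAAGT was in 0 of the 5 windows and 7.02% of all promoters, TTCNNNGAA in 0 and 7.66%, and TGANTCA in 0 and 7.71%. The counts for *STAT4*, which had no peak, were within the range of the other 4 for each of these motifs.

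Around the STATs in their pathway, 34 genes of cytokine receptors, JAK kinases, phosphatases and inhibitors were listed. A promoter peak was found at 28 without and 30 with IFN-γ, at 26 in both and at 2 in neither, *IL12RB2* and *PIAS3*, beside 61.9%, 59.7% and 56% of coding genes for the first 3 counts. The highest mean rank belonged to *OSMR*, the receptor of oncostatin M that acts through STAT3, with fold enrichments of 45.1 and 42.6 and pileups of 123 and 167 fragments, within the leading 0.722% of peaks on average. The phosphatases *PTPN11* (SHP2) and *PTPN6* (SHP1) followed with 33.6 and 30.2 and with 25.8 and 26.6. *JAK1*, the kinase shared by most of these receptors, had 14.4 and 28.2, with 39 and 86 fragments, and *IL6R* had 21.7 and 16.2. Promoters of *IFNLR1* and *PIAS2* had a peak in the control library alone, and those of *IL2RG*, *IL12RB1*, *PTPRC* and *IRF9*, the partner of STAT2, in the IFN-γ library alone, 2 and 4 of the 34 genes beside 5.9% and 3.7% of coding genes. *OSMR*, *PTPN11*, *PTPN6* and *IL6R* were above *STAT3*, the strongest STAT promoter, in fold enrichment in both libraries, and *JAK1* in the IFN-γ library. These values count every annotated TSS, and *PTPN6* had no control peak at its MANE Select TSS.

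Among 11224 other coding genes with a promoter peak in both libraries, the genes nearest to *STAT3* in log2 summit pileup at equal depth over the 2 libraries were *NRN1* at a distance of 0.0265, *CAVIN3* at 0.0280 and *DENND4B* at 0.0280. Their pileups, by which they were chosen, were 51 and 55, 52 and 54, and 52 and 54 fragments, beside 51 and 54 at *STAT3*. In fold enrichment they were less alike. The control and IFN-γ values were 19.2 and 10.0 at *NRN1*, 15.5 and 9.82 at *CAVIN3*, and 14.4 and 15.1 at *DENND4B*. Those of *STAT3* were 20.2 and 15.5.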

How the data were processed

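Per the labels, the authors used Cutadapt 1.18 for trimming, Bowtie2 2.3.4.1 for alignment to GRCh38, Picard for duplicates, MACS 2.1.2 for calling peaks in each library and ChIPseeker for annotation. Whether the input was used in calling is not given in the sources used here, and the input libraries are not analysed here. The deposited lists give each summit's fold enrichment, a ratio of pileup plus 1 to background plus 1, and the −log10 of its p-value and q-value. The deposited display score was not used. Coordinates were converted to 1-based positions. Pileup and background were solved from fold and −log10 p under the Poisson model of MACS. An overlap of 1 bp made a pair of peaks shared. Motif searches covered both strands to 100 bp from each summit. Each step returned 100% of the known answers on simulated data. The members, the list of 34 pathway genes and the tests were chosen with earlier results of these data known. The text names the STAT genes, neighbouring genes at described peaks, the 5 pathway genes with the highest mean rank, and the 3 genes most like the strongest STAT promoter in the control library. In the flank of *STAT4*, 2 peaks per library entered the counts and are not otherwise reported here, and the sequences of some windows are not printed. Alternatives were other promoter windows, TSSs, flanks, overlaps, cutoffs, list lengths, scalings, rankings and motif windows. Python 3.11.15, numpy 2.4.6, pandas 2.3.3, scipy 1.17.1 and matplotlib 3.10.9 were used.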

Additional observations from a re-analysis of the deposited data

How the results depend on the processing

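Of the alternatives tried, 49 gave a value within 1.5 times the reported count or within the reported interval, and 5 did not. With a flank of 100 kb in place of 50 kb the IFN-γ peaks at the STAT genes rose from 25 to 39. With motifs searched within 50 bp of the summit in place of 100 bp, TGANTCA was at 2 control summits and 3 IFN-γ summits in place of 4 and 5, the interferon-stimulated response element at 0 control summits in place of 1, and TTCNNNGAA at 0 IFN-γ summits in place of 1. With lists of equal length the order of the libraries reversed for 2 counts and for the share of shared STAT peaks. Peaks at the STAT genes were then 20 (control) and 18 (IFN-γ), in place of 20 and 25. Pathway genes with a promoter peak were 28 and 27, in place of 28 and 30. The share of STAT peaks shared between the libraries was 65% (control) and 77.8% (IFN-γ), in place of 75% and 64%. The *STAT2* promoter ratio was 0.484 from fold enrichments in place of 0.736 from pileups, in the same direction, while that of *STAT6* turned from 1.05 to 0.955. No paired analysis was possible because a single library represented each condition. With 1 library per condition none could be left out in turn, and depth limits the ratios: that of the *STAT5B* promoter, from 15 fragments in each library, has an interval of 0.313 to 1.51.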
